A study of Mus musculus with 384 samples.

Results

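The genes described here are 35 smooth muscle contractile and cytoskeletal genes, chosen by name: the listed genes that the deposited values hold. All 35 were present among 23422 genes in the counts and among 22276 genes in the filtered log2(TPM + 1) values. They were followed over single cells of the adult mouse lung mesenchyme, in kept cells and pool wells from 4 mice of 2 lines. The Lgr5 line was Lgr5-CreERT2;R26-Tom, in which Cre is made from the Lgr5 locus and, after induction with tamoxifen, turns on the red reporter in the cell and in its progeny. Cells were sorted as CD31-CD45-CD11b-TER119- and Tom+. The Lgr6 line was Lgr6-EGFP-CreERT2, in which EGFP is made from the Lgr6 locus, and cells were sorted with the same 4 exclusions and as GFP+. The first reporter marks the history of a cell and the second its present state, and the labels name no injury or drug for these samples. Most experiments of the study used mice of 7 to 10 weeks, and the age of these 4 mice is not given in the sources used here. Each mouse gave 95 single-cell wells and 1 pool well, and the authors' filter left 29 and 28 cells of Lgr5 mice 1 and 2 and 50 and 75 cells of Lgr6 mice 1 and 2. The mouse is the replicate, so each line has 2.

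Smooth muscle shortens when myosin, the thick filament, pulls on actin, the thin filament. Calcium bound to calmodulin activates myosin light chain kinase, which phosphorylates the regulatory light chain, and a myosin phosphatase takes the phosphate away. Thin filaments are anchored in dense bodies and in dense plaques at the membrane, where integrins, vinculin and filamin tie them to the matrix, and desmin links these points through the cell. Most of these genes are read by serum response factor (Srf), which binds the CArG box, together with its coactivator myocardin (Myocd). In the lung, such cells wrap airways and vessels, and pericytes and myofibroblasts carry part of the same set.

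The CArG boxes near the gene starts are shown because Srf is itself a member and the box is the letter pattern that it binds. The box was searched as CC, then 6 letters that are each A or T, then GG. The pattern reads the same on both strands, so a single search covers both, and the search window ran from 250 bases before to 50 bases after the RefSeq start (GRCm38.p6). Each line gives 30 bases, 5′ to 3′ on the strand of the gene, with the box in capitals, and the boxes of these genes lie 34 to 227 bases before the start.
Acta2, chr19:34255438-34255467, 1 letter off the pattern: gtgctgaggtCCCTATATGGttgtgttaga
Acta2, chr19:34255388-34255417, 1 letter off the pattern: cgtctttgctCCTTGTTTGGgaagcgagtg
Actc1, chr2:114052903-114052932: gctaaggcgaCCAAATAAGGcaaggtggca
Myl9, chr2:156775293-156775322: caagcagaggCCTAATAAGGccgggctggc
Myl6, chr10:128493040-128493069: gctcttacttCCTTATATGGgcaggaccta
Vcl, chr14:20929161-20929190: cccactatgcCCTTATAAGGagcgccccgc
Ldb3, chr14:34588697-34588726: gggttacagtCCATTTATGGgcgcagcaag
Srf, chr17:46556225-46556254: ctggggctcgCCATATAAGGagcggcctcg
Srf, chr17:46556205-46556234: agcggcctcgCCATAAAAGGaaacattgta
The sequence table held 28 of the 35 members. An exact box stood in 6 of the 28 (21.4%), against 488 of 27025 genes in the table (1.81%). With 1 letter off allowed the counts were 9 of 28 (32.1%) and 3050 of 27025 (11.3%). Acta2 is printed by boxes 1 letter off, while those of Pcp4l1 and Pdlim3 are not printed. Such a match is a description of the letters and not a measured binding site. Abra, Actg2, Itga7, Myh11, Myocd, Nexn and Tagln had no entry.

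Some facts of the whole series bear on these values. Depth differed between the mice. The median depth of the kept cells was 263129 counts for Lgr5 mouse 1, 272729 for Lgr5 mouse 2, 332588 for Lgr6 mouse 1 and 1537593 for Lgr6 mouse 2, and the summed counts ran from 9874249 to 124650544. The cDNA was amplified without molecular identifiers, so intervals given below cover counting error only. The collagen gene Col3a1 was detected in 89.3% to 94.7% of the cells of each mouse, while the sort genes followed the lines unequally: Lgr5 was detected in 79.3% and 75% of the Lgr5 cells and in 22% and 37.3% of the Lgr6 cells, but Lgr6 in 27.6% and 32.1% of the Lgr5 cells and in 26% and 34.7% of the Lgr6 cells. Epcam, a marker of epithelium, was detected in 7, 8, 3 and 4 cells, and 16 cells had a summed TPM of at least 10000 over a list of lung epithelial genes.

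The contractile genes were higher in the Lgr6 mice than in the Lgr5 mice almost without exception when each cell had the same weight. By the mean log2(TPM + 1) over cells, 31 of 35 members were higher in both Lgr6 mice than in both Lgr5 mice, 0 were higher in both Lgr5 mice, and 4 overlapped (Vcl, Pln, Kcnmb1 and Pdlim7). Over all 14357 genes detected in at least 5 kept cells, 19.7% were higher in both Lgr6 mice and 31.1% in both Lgr5 mice. The median difference over members was 1.96 on the log2 scale, against -0.08 over those genes. A mean over cells joins the share of cells with a gene and its level in them, which are given apart below. Line, sort marker, plate and depth moved together. With 2 mice against 2, an exact two-sided permutation test cannot give a p below 0.33, which was the p of each of the 31. By the median over cells in place of the mean, 19 members were higher in both Lgr6 mice (2.28% of all genes), 0 were lower and 16 overlapped.

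**Figure D1:**
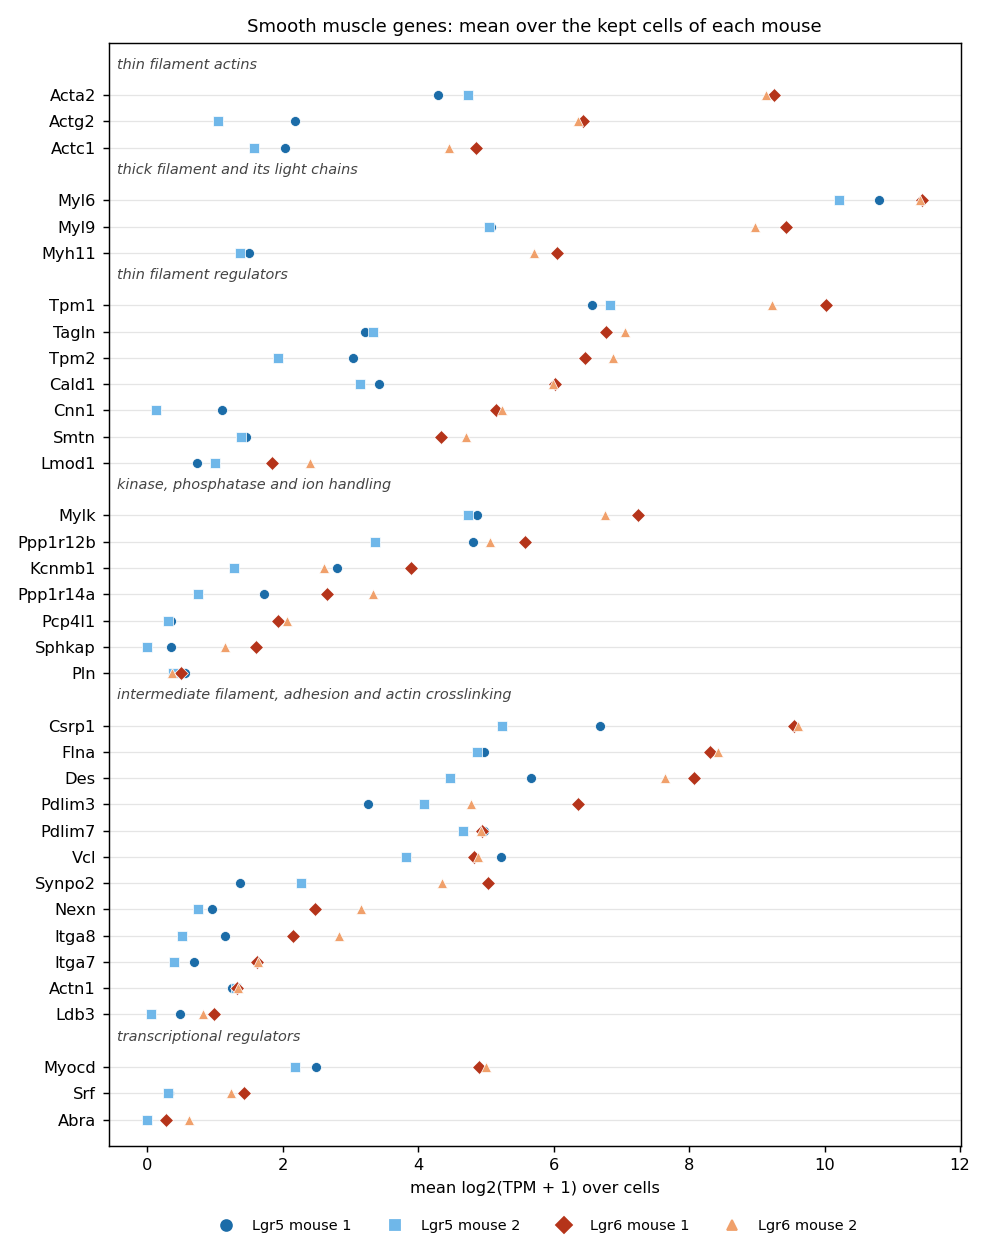
Mean log2(TPM + 1) over the kept cells of each mouse (x axis) for the 35 genes, grouped by role; each point is a mouse (29, 28, 50 and 75 cells). The 2 Lgr6 points lie to the right of both Lgr5 points for 31 genes, from 0.05 apart in their line means for Actn1 to 4.79 apart for Actg2.

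On counts summed per mouse, edgeR's quasi-likelihood test called 0 of 14086 genes at an adjusted p of 0.05 (0.0%), members included. At an unadjusted p under 0.05 it gave 1312 genes, among them 19 of the 35 members, all higher in the Lgr6 mice, where 5.25% of all genes had such a p and were higher. The fitted change was positive for 34 of 35 members, with a median of 1.61 against 0.05 over all genes tested. When 1 mouse was left out the median ran from 1.37 to 2.54, the highest without Lgr5 mouse 1, where that of all genes was 0.36. DESeq2 on the same sums called 567 genes (4.03%), of which 3 were members (Acta2, Smtn and Abra), all higher, where 2.09% of genes were called higher. Without the filter on low counts, edgeR called 408 of 19715 genes (2.07%), and 17 of these were members, all higher, where 0.883% of genes were called higher. Abra, called in both of these fits, had 0 counts in either Lgr5 mouse, so it could only be higher. The adjusted p of the members in edgeR's fit with the filter ran from 0.327 upward, so the fold changes given below for single members are sizes with a standard error and not calls.

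A single cell set much of what the summed counts of Lgr5 mouse 1 held for these genes. It was the only Lgr5 cell with an Acta2 level of at least 12, it had counts for 33 of the 35 members, and it held 7.83% of the counts of its mouse. Of the Acta2 counts of Lgr5 mouse 1 this cell held 76%, of Myh11 91.9%, of Cnn1 97.9%, of Actc1 99.4% and of Pcp4l1 100%. For 18 members it held over 50% of the counts of the mouse, and for 7 over 90%. For some members, fold changes without it are given below beside those with it, a setting chosen after seeing the data. Others moved too: without it the change was 3.06 for Synpo2, 4.47 for Pcp4l1, 4.74 for Srf, 3.84 for Tpm2, 3.07 for Myl9 and 2.77 for Tagln. With it these were 1.54, 2.45, 2.65, 2.52, 1.89 and 2.06. Itga7 (2.06 with it and 2.0 without) and Sphkap (3.89 and 3.78) hardly moved. The cell was picked for its high Acta2, and the 52 Lgr6 cells at that level were kept, so the line difference without it is larger by choice and no test rests on it. The median change of the members was 2.32 without it, against 1.61 with it. By the mean over cells, 31 members were higher in both Lgr6 mice also when it was left out. Without the 16 cells of high epithelial TPM the count by means was 33.

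Acta2, Actg2 and Actc1 encode the actins of smooth and cardiac muscle thin filaments. Acta2 (chr19:34241090-34255590), the vascular and airway form, averaged 4.30 and 4.73 in Lgr5 mice 1 and 2 and 9.25 and 9.13 in Lgr6 mice 1 and 2. The lines did not overlap, and the difference of 4.68 was many times the SD between mice of a line (0.31 and 0.09). On summed counts the log2 fold change was 2.73 ± 0.40 (SE, edgeR, adjusted p = 0.327), and 3.69 without the Lgr5 cell described above. Actg2 (chr6:83512905-83536265), the enteric form, averaged 2.18, 1.04, 6.44 and 6.36, with a fold change of 3.24 ± 1.29, or 6.10 without that cell. Actc1 (chr2:114047282-114053548), the cardiac form, averaged 2.03, 1.58, 4.86 and 4.46, with a fold change of 3.32 ± 1.41, or 8.44 without that cell. By the share of cells with a count above 0, Acta2 stood at 55.2% (exact 95% interval 35.7 to 73.6), 57.1% (37.2 to 75.5), 88% (75.7 to 95.5) and 90.7% (81.7 to 96.2). Its median TPM in the cells that had it was 352, 468, 3836 and 3614, so both the share and the level were higher in the Lgr6 mice. Actg2 was detected in 27.6%, 17.9%, 64% and 60% of cells. Actc1 did not follow them: its shares of 48.3%, 35.7%, 44% and 45.3% overlapped between the lines, while its median TPM in the cells that had it was 13.9, 13.7, 6959 and 2401. The Lgr5 cells with Actc1 thus mostly held it at a low level. The 3 actins share few 31-base words with other transcripts (1.39%, 1.21% and 0.756% of those of Acta2, Actg2 and Actc1), the length on which the reads were assigned.

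Of the thick filament genes, Myh11 was the most unequal and Myl6 the least. Myh11 (chr16:14194535-14291372), the smooth muscle myosin heavy chain, averaged 1.51, 1.37, 6.05 and 5.72 and was detected in 24.1%, 25%, 74% and 66.7% of cells. Its log2 fold change was 2.35 ± 1.05 (SE), and 5.11 without the single Lgr5 cell. Myl9 (chr2:156775420-156781658), the regulatory light chain that the kinase phosphorylates, averaged 5.07, 5.05, 9.43 and 8.98, and its fold change was 1.89 ± 0.63. It was detected in 51.7% and 57.1% of the Lgr5 cells and in 84% and 80% of the Lgr6 cells. Myl6, the essential light chain that nonmuscle myosin also uses, averaged 10.81, 10.22, 11.44 and 11.41, with a fold change of 0.97 ± 0.35. At least 92.9% of the cells of each mouse had it, so its lines differed in level and overlapped in share. Of its 31-base words 22.4% occur in other genes, mostly pseudogenes, so its level is less certain.

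All 7 thin filament regulators were higher in both Lgr6 mice. Tagln (transgelin) averaged 3.22, 3.33, 6.77 and 7.05, with a log2 fold change of 2.06 ± 0.45 (SE), and 53% of its 31-base words are shared, mostly with the predicted gene Gm48529. Cnn1 (chr9:22099216-22109630), calponin, an inhibitor of the myosin ATPase, averaged 1.10, 0.13, 5.16 and 5.23. It was detected in 4 of 29, 2 of 28, 24 of 50 and 39 of 75 cells, so it was the rarest of the strong markers in the Lgr5 line. Its fold change on summed counts was 1.5 ± 1.98, where 97.9% of the counts of Lgr5 mouse 1 were in 1 cell, and it was 6.88 without that cell. The tropomyosins, which lie along actin, were Tpm1 at 6.56, 6.83, 10.02 and 9.23 and Tpm2 at 3.04, 1.94, 6.46 and 6.87. Their fold changes were 1.61 ± 0.36 and 2.52 ± 0.86. Caldesmon (Cald1) averaged 3.42, 3.14, 6.02 and 5.99 with a fold change of 1.70 ± 0.42, and smoothelin (Smtn) 1.45, 1.38, 4.33 and 4.71 with 2.88 ± 0.51. Leiomodin (Lmod1), which starts new filaments, was low throughout at 0.74, 1.0, 1.84 and 2.41, with a fold change of 0.72 ± 0.77. The lines did not overlap for any of the 7, and Smtn and Cald1 were hardly moved by the single Lgr5 cell (2.95 and 1.71 without it).

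The genes that set the phosphorylation of myosin and handle ions were the least uniform group, with 5 of 7 higher in both Lgr6 mice. Mylk, the light chain kinase, averaged 4.88, 4.74, 7.25 and 6.76, with a fold change of 1.56 ± 0.47 (SE). Ppp1r12b, a targeting subunit of myosin phosphatase, averaged 4.81, 3.36, 5.57 and 5.06 (1.60 ± 0.53), and Ppp1r14a, an inhibitor of that phosphatase, 1.72, 0.75, 2.66 and 3.33 (0.86 ± 1.56). Kcnmb1, the beta subunit of the BK potassium channel, overlapped between the lines at 2.80, 1.28, 3.89 and 2.61. Pln, phospholamban, was near 0 in all mice (0.56, 0.38, 0.49 and 0.37), and 59.6% of its 31-base words are shared, mostly with the predicted gene Gm47644. Pcp4l1, a small protein related to the calmodulin regulator Pcp4, averaged 0.35, 0.31, 1.93 and 2.06, with a fold change of 2.45 ± 0.82. Sphkap, an anchor for protein kinase A, averaged 0.35, 0.00, 1.61 and 1.15, with a fold change of 3.89 ± 2.02. Both were seen in few cells: Pcp4l1 in 1, 1, 11 and 17 and Sphkap in 3, 0, 12 and 15.

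Among the genes of intermediate filaments, adhesion and actin crosslinking, 10 of 12 were higher in both Lgr6 mice. The largest were Csrp1, a LIM protein of actin bundles, at 6.68, 5.24, 9.56 and 9.61 with a log2 fold change of 1.90 ± 0.46 (SE), and Flna, filamin A, at 4.97, 4.87, 8.31 and 8.42 with 1.69 ± 0.49. Des (chr1:75360329-75368579), desmin, averaged 5.66, 4.47, 8.07 and 7.65. Its fold change of 0.93 ± 0.57 became 2.32 without the single Lgr5 cell, which held 81.9% of the desmin counts of its mouse. Synpo2, which bundles actin at dense bodies, averaged 1.37, 2.27, 5.03 and 4.35 (1.54 ± 0.52), Pdlim3 3.26, 4.08, 6.35 and 4.77 (0.64 ± 0.62), and Nexn 0.96, 0.75, 2.48 and 3.16 (1.28 ± 0.71). The integrin chains were lower: Itga7, which binds laminin, averaged 0.69, 0.39, 1.63 and 1.63 (2.06 ± 0.74), and Itga8 1.15, 0.51, 2.15 and 2.83 (1.09 ± 0.86). Actn1, alpha-actinin, averaged 1.26, 1.3, 1.32 and 1.34, so that its lines were 0.05 apart (0.92 ± 1.09 on summed counts). Ldb3, a PDZ and LIM protein, averaged 0.49, 0.05, 0.99 and 0.82. Its fold change was -0.53 ± 1.83 on summed counts, the only negative one among members, and 3.84 without the single Lgr5 cell, which held 96.1% of its counts in Lgr5 mouse 1. Vcl, vinculin, and Pdlim7 overlapped, at 5.22, 3.82, 4.83 and 4.89 and at 4.97, 4.66, 4.94 and 4.92. Vcl shares 38.4% of its 31-base words with Ap3m1.

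The transcriptional members were all higher in both Lgr6 mice, at lower levels. Myocd (chr11:65176561-65269989) averaged 2.50, 2.18, 4.90 and 5.0 with a fold change of 1.59 ± 0.44 (SE), and was detected in 48.3%, 39.3%, 66% and 73.3% of cells. Srf (chr17:46548329-46556175) averaged 0.32, 0.31, 1.43 and 1.23 with a fold change of 2.65 ± 1.54, and was detected in 6.90%, 10.7%, 32% and 28% of cells. Abra, an actin-binding activator of Srf signalling, had 0 counts in either Lgr5 mouse and 73 and 2753 counts in Lgr6 mice 1 and 2. Against a floor of 3 counts per mouse it was at least 8.32-fold higher in CPM in Lgr6 mouse 1 and at least 72.7-fold higher in Lgr6 mouse 2. Abra was seen in 2 and 5 cells of the Lgr6 mice, so it rests on few cells.

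Shares of cells gave a similar picture to means. By share, 27 of 35 members were higher in both Lgr6 mice (15.6% of all 14357 genes), 1 was higher in both Lgr5 mice (Pdlim7, at 69%, 75%, 66% and 61.3%) and 7 overlapped. After each cell was thinned to 99000 reads, which left out 1, 3, 13 and 2 cells, the count was again 27 (15.5% of genes), and Pdlim7 overlapped. Some members were also detected in wells that the filter had removed for Ptprc, a leukocyte transcript, or Pecam1, an endothelial one: Ppp1r12b in 18 of 18 Lgr5 wells removed for Ptprc alone and Kcnmb1 in 15 of 18, while Cnn1 was detected in 0 of 18, which allows a share of up to 16.7%. Cnn1 was in 1 of 28 Lgr5 wells removed for Pecam1 alone and in 4 of 54 with both transcripts. Myh11 was in 9 of 18, 6 of 28 and 35 of 54 of these 3 classes, against 24.1% and 25% of the kept Lgr5 cells. Acta2 was detected in 44.4% of those 18 wells and in 60.7% of 28 Lgr5 wells removed for Pecam1 alone, shares inside the intervals given above for the kept Lgr5 cells. In 54 wells with both transcripts, which held a median of 9996 genes, the share was 74.1%. Whether the removed wells should lack Acta2 was not tested, since all were sorted alike. Its mean level in these 3 classes of removed wells was 2.49, 3.61 and 3.93, below the 4.30 and 4.73 of the kept cells. The wells removed for Ptprc alone held a median of 307846 counts.

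A kept cell held a median of 15, 13.5, 20 and 20 of the 35 genes in Lgr5 mice 1 and 2 and Lgr6 mice 1 and 2, with ranges of 7 to 33, 8 to 23, 7 to 34 and 5 to 34. At 99000 reads per cell the medians were 13.5, 13, 18 and 19. At least 20 members were found in 4, 4, 26 and 39 cells, which is 13.8%, 14.3%, 52% and 52%. A single Lgr5 cell came as high as 33, and the lines differed in how many cells came near it.

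**Figure D2:**
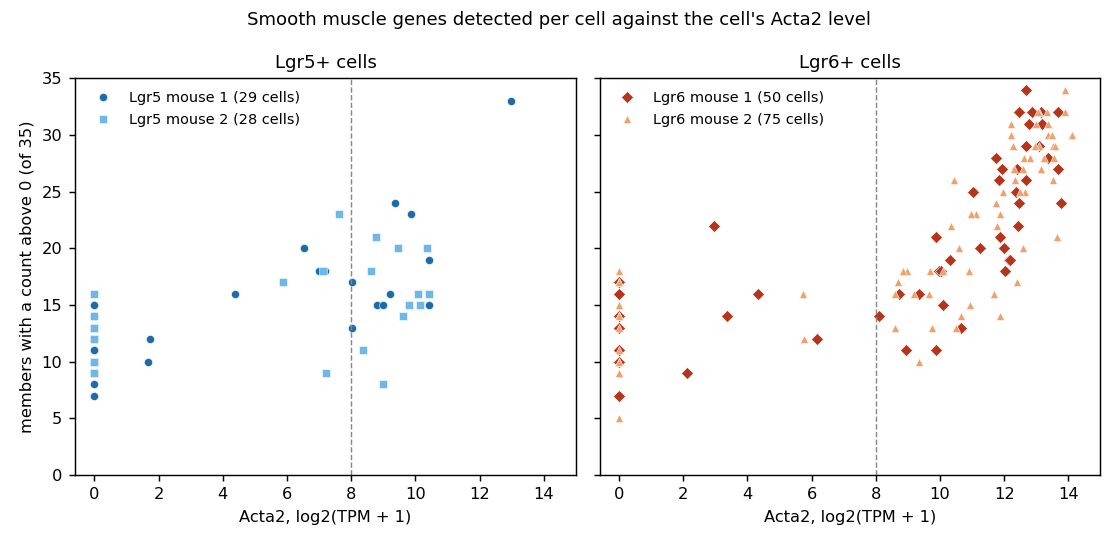
Number of the 35 genes with a count above 0 in each cell (y axis) against its Acta2 level in log2(TPM + 1) (x axis), for 57 Lgr5 cells (left) and the 50 and 75 Lgr6 cells (right); each point is a cell and the dashed line is the level of 8. At an Acta2 level of 12 or more, 52 Lgr6 cells have a median of 28.5 genes, while 1 Lgr5 cell, with 33 genes, is found there.

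The number of members in a cell rose in steps with its Acta2 level in the Lgr6 line. Cells were ordered by their own Acta2 level into those at 0, above 0 and under 8, 8 to under 10, 10 to under 12, and 12 or more. In the Lgr6 line these grades held 23, 7, 17, 26 and 52 cells, with medians of 14, 14, 16, 20.5 and 28.5 members. In the Lgr5 line they held 26, 10, 14, 6 and 1 cells, with medians of 11.5, 17.5, 15.5, 16 and 33 members. A level of 0 includes 11 cells with 1 or 2 Acta2 counts. Depth moved with part of these grades within each Lgr6 mouse. From 8 to under 10, to 10 to under 12, to 12 or more, the median counts per cell were 129001, 397745 and 418813 in Lgr6 mouse 1 and 1189204, 1383542 and 1705748 in Lgr6 mouse 2. At 0 they were 371751 and 2040111, where a cell held a median of 13 and 14 members, and the part of depth in the series was not tested.

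Single members came in at different grades of the Lgr6 cells. Myl9 was found in 76.5% of the cells at 8 to under 10, Tagln in 64.7%, Tpm2 in 58.8%, Myh11 in 52.9%, Actg2 in 23.5% and Cnn1 and Actc1 in 5.88% each. At 10 to under 12 the shares were 96.2% for Myl9, 84.6% for Tagln, 80.8% for Myh11, 65.4% for Actg2, 53.8% for Cnn1 and 34.6% for Actc1. At 12 or more Myl9 and Actg2 were found in 100%, Cnn1 in 88.5%, Actc1 in 80.8% and Pcp4l1 in 50% of cells. Pcp4l1, Sphkap and Abra were seen in 0 of the 47 Lgr6 cells below an Acta2 level of 10, which allows a share of up to 6.38%. The order is a description across cells that share mice and plates. The Lgr5 cells under 12 showed no such rise for Actc1 (42.3%, 40%, 50% and 16.7%), while Myl9 stood at 34.6%, 50%, 78.6% and 83.3% over the same grades, near its Lgr6 share at 8 to under 10.

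**Figure D3:**
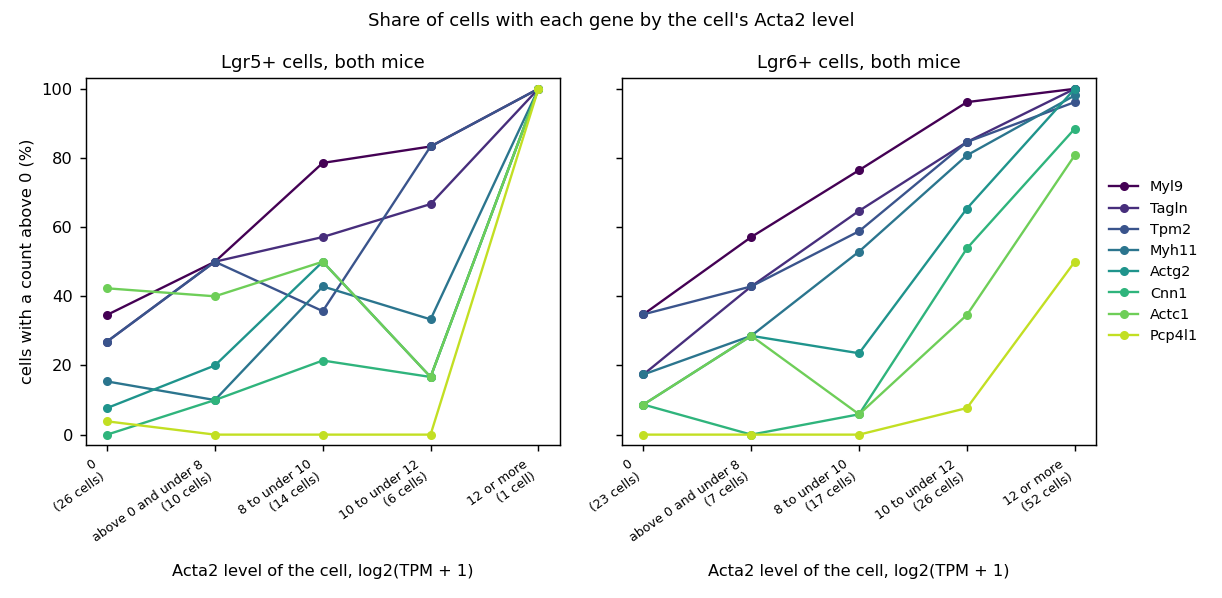
Share of cells with a count above 0 (y axis, %) for 8 genes, by the cell's Acta2 level in log2(TPM + 1) (x axis, 5 grades with their number of cells), for both Lgr5 mice (left) and both Lgr6 mice (right); lines join the grades of a gene. In Lgr6 cells Myl9 reaches 76.5% at 8 to under 10, where Cnn1 is at 5.88% and Pcp4l1 at 0%, and the rightmost Lgr5 grade is 1 cell.

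Detection was nested in the Lgr6 line. Of 63 cells with Cnn1, 63 had Acta2, 62 Myl9, 61 Myh11, 60 Actg2 and 50 Actc1. In the reverse direction, 56.2% of the Lgr6 cells with Acta2 had Cnn1 and 49.1% had Actc1. Of only 6 Lgr5 cells with Cnn1, 6 had Acta2, 6 Myl9, 2 Myh11, 2 Actg2 and 4 Actc1, and of 13 with Actg2, 11 had Acta2. Actc1 was less nested in the Lgr5 line: of 24 cells with it 13 had Acta2 and 6 Myh11, against 55 and 55 of 56 Lgr6 cells. In the reverse direction, of 32 Lgr5 cells with Acta2, 22 had Myl9, 18 Tagln, 10 Myh11 and 6 Cnn1. Acta2 was in 88% and 90.7% of the Lgr6 and 55.2% and 57.1% of the Lgr5 cells, which alone raises the overlap with it in the Lgr6 line.

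To set the members beside Acta2 within a mouse and so apart from the sort, the Acta2-high cells (a level of at least 8, which were 10, 11, 38 and 57 cells) were compared with the other kept cells of the same mouse. This class is a range of 1 gene and not a cell type, and 20 cells lay within 1 of the threshold. By mean log2(TPM + 1), 18 of the other 34 members were higher in the Acta2-high cells of all 4 mice, against 6.14% of 14356 genes, and 13 more were higher in 3 mice, against 20.1% of genes. Myh11 averaged 2.94 against 0.75 in Lgr5 mouse 1, 2.75 against 0.47 in Lgr5 mouse 2, 7.72 against 0.77 in Lgr6 mouse 1 and 7.34 against 0.59 in Lgr6 mouse 2. Tagln averaged 5.31 against 2.12, 4.58 against 2.51, 8.48 against 1.37 and 8.77 against 1.60. The gap was thus wider in the Lgr6 mice for both, and the other cells of the lines were alike or lower in the Lgr6 mice. The Acta2-high cells also stood higher in Acta2 itself in the Lgr6 mice (11.67 and 11.81) than in the Lgr5 mice (9.61 and 9.51). Cnn1 was at 0 in the other cells of both Lgr6 mice and at 6.78 and 6.89 in their Acta2-high cells. Leaving out the single Lgr5 cell gave 14 members in place of 18, leaving out the cells of high epithelial TPM gave 15, and thresholds of 5 and 10 gave 23 and 19.

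On sums per mouse and class, with the mouse as a block, edgeR's test called 7 of 11022 genes (0.0635%), all lower in the Acta2-high cells and none of them a member. The 7 were Chia, H2-Aa, Hc, Il8, Sftpd, Slc34a2 and Wfdc2, several of which are alveolar epithelial genes. Of the 31 members tested beside Acta2, 30 were positive and 18 had an unadjusted p under 0.05, where 1.77% of the genes had such a p and were higher, and 535 genes had one in either direction. Nearest to the threshold were Myh11 with a log2 fold change of 6.54 ± 0.74 (SE, adjusted p = 0.0555), Tagln with 4.40 ± 0.52 (adjusted p = 0.0559) and Des with 3.32 ± 0.42 (adjusted p = 0.0742). Tpm2 changed by 3.92 ± 0.56 (adjusted p = 0.11), and Flna, Myl9 and Mylk by 2.43, 3.64 and 1.73. Itga8 was the 1 member with a negative value (-1.44 ± 0.92). Abra, Cnn1 and Sphkap did not pass the filter on low counts. DESeq2 called 603 genes (5.47%) and 16 members, all higher, where 2.04% of genes were called higher, and edgeR on the Lgr6 mice alone called 27 genes, of which 10 were higher (0.0758%) and 7 of these were members: Actc1, Cnn1, Des, Flna, Myh11, Pcp4l1 and Tpm2. In that fit of the Lgr6 mice, Cnn1 and Pcp4l1 averaged 0.0 in the other cells of both mice. They passed the filter through the Acta2-high cells and could only be higher, and Actc1 was near 0 in the other cells (0.61 and 0.05). In the Lgr5 mice alone edgeR called 0 genes, with 589 at an unadjusted p under 0.05. There 24 of 31 members were positive and 10 of them had such a p, and DESeq2 was not run on these mice.

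Epithelial transcripts moved with this class. The list of lung epithelial genes had a median summed TPM of 110, 53.3, 2.77 and 2.55 in the Acta2-high cells of the 4 mice and of 329, 240, 16.8 and 9.10 in the other cells, with highest cells of 37880, 15960, 6641 and 4386 against 685900, 485300, 457800 and 405500. Of the 16 cells of high epithelial TPM, 14 were in the other class. Without them edgeR called 0 genes (316 at an unadjusted p under 0.05), while 29 of the 30 members then tested were positive with a median of 2.22.

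Tpm1 differed between the lines within this contrast. Its mean was 4.43 in the Acta2-high and 7.68 in the other cells of Lgr5 mouse 1, and 5.79 and 7.50 in Lgr5 mouse 2. In the Lgr6 mice it was 10.87 against 7.33 and 10.01 against 6.77. By this mean it was thus lower with high Acta2 in both Lgr5 mice and higher in both Lgr6 mice. On summed counts the direction in Lgr5 mouse 1 was the opposite, where 1 Acta2-high cell held 2983 of the 6194 Tpm1 counts. On sums the interaction of line and class was 1.70 ± 0.63 (SE) for Tpm1, with an adjusted p of 0.983 by edgeR, so the difference did not pass the test.

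The lines were also compared within the Acta2-high cells, a comparison added after seeing the data. The fitted change was positive for 32 of 35 members with a median of 1.42, against 0.28 over all 12314 genes, and 9 members had an unadjusted p under 0.05 and were higher (10.3% of genes). This excess depended on which Lgr5 cells were used. Without Lgr5 mouse 2, 28 of 35 members were positive and the median was 0.65 against 0.81 over all genes. The Lgr5 side was then mouse 1, where the single cell described above held over 50% of the counts for 18 members. With both Lgr5 mice but without that cell, picked for its high Acta2, 34 of 35 were positive with a median of 2.38 against 0.21. Without Lgr5 mouse 1 the median was 3.12 against 1.26. edgeR called 0 genes, with 1536 at an unadjusted p under 0.05, and DESeq2 called 993 (8.06%, or 6.68% called higher), among them 2 members, Abra and Sphkap, both higher. Abra had 0 counts in either Lgr5 mouse and could only be higher, and Sphkap averaged 0.06 and 0.0 in the Lgr5 Acta2-high cells. For Actc1, which within the Acta2-high cells averaged 3.18, 0.99, 6.20 and 5.86, the interaction of line and class was 8.46 ± 2.65 (adjusted p = 0.983). The interaction fit called 0 of 13702 genes by edgeR (606 at an unadjusted p under 0.05, with 6 members positive where 3.34% of genes were) and 366 by DESeq2 (2.67%, or 2.07% positive), of which 4 were members, all positive: Actc1, Kcnmb1, Pcp4l1 and Sphkap. Of these, Pcp4l1 and Sphkap averaged 0.0 in the other cells of both Lgr6 mice.

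The members varied together over the cells of each Lgr6 mouse and loosely over those of each Lgr5 mouse. The median Spearman rho over pairs of members was 0.16 and 0.05 over 29 and 28 Lgr5 cells and 0.41 and 0.42 over 50 and 75 Lgr6 cells, and 79.9%, 59.7%, 99.3% and 97% of the pairs were positive. Cells of a mouse share a plate and a range of depth, so no p is given. The closest pairs were Myh11 with Myl9 in Lgr6 mouse 1 (0.91) and Acta2 with Myl9 in Lgr6 mouse 2 (0.90). In the Lgr5 mice they were Pcp4l1 with Srf in mouse 1 (0.72) and Myh11 with Actg2 in mouse 2 (0.68). The former rests on 1 cell: Pcp4l1 was in 1 and Srf in 2 of 29 cells, and the single Acta2-high cell described above held 100% and 85.2% of their counts. Myh11 and Actg2 were in 7 and 5 of 28 cells. Each gene was also set beside the mean of the other 34. All 35 genes were positive in both Lgr6 mice and 25 in all 4 mice. Neither these counts nor the rho values over pairs were set beside those of other genes, so whether the members exceed them was not tested. Acta2 had 0.62, 0.56, 0.90 and 0.89, Myl9 0.16, 0.45, 0.89 and 0.91, and Myh11 0.44, 0.40, 0.92 and 0.86. Srf was the weakest of the transcriptional members in the Lgr6 mice, at 0.20 and 0.12. Thinning of the deepest mouse to 99000 reads left its median at 0.41.

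**Figure D4:**
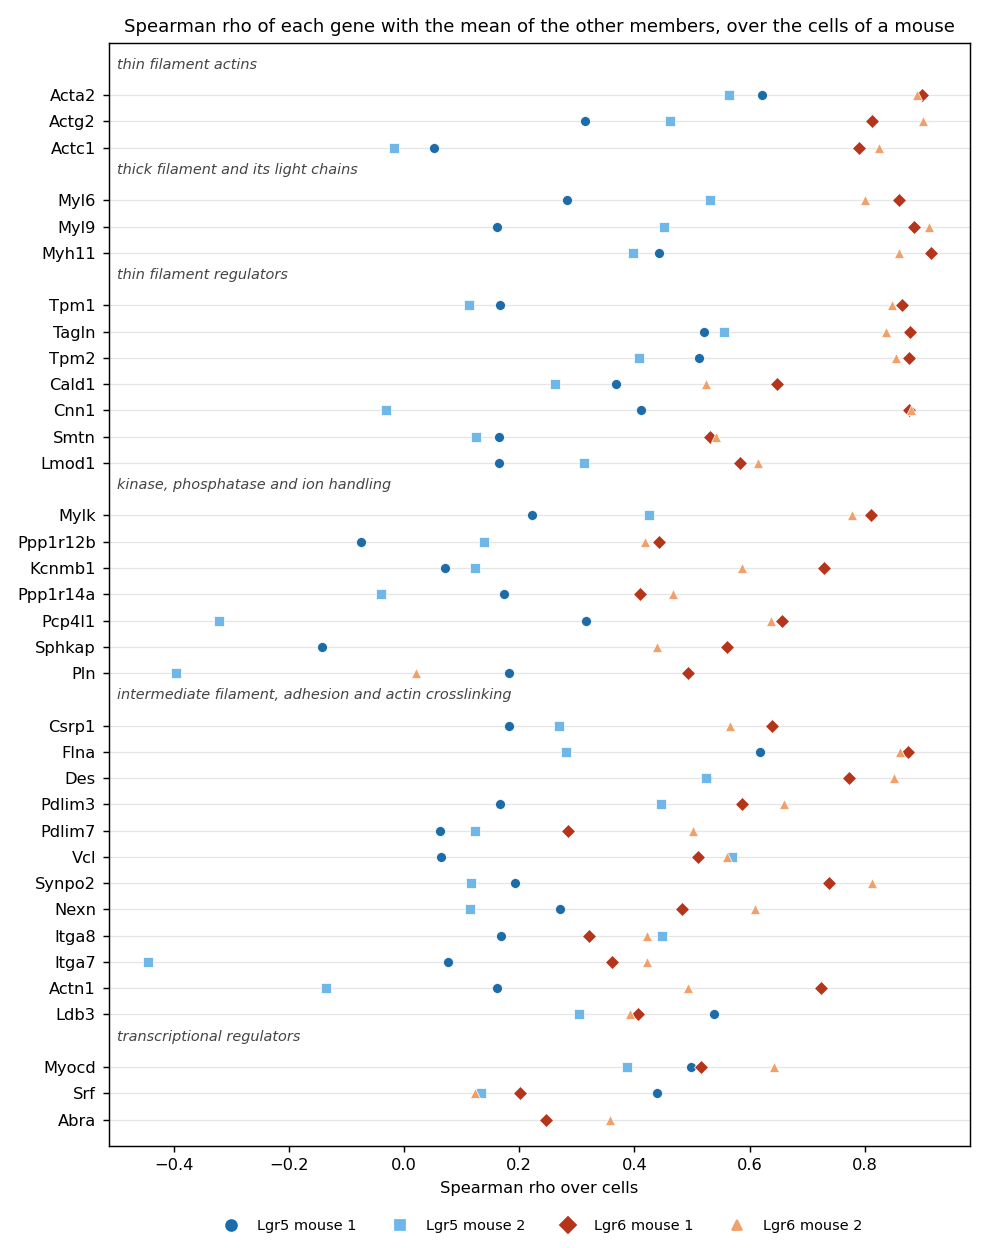
Spearman rho (x axis) of each gene with the mean log2(TPM + 1) of the other members over the cells of a mouse, grouped by role; each point is a mouse (29, 28, 50 and 75 cells). The Lgr6 points are all above 0 and reach 0.92 for Myh11, while in the Lgr5 mice Actc1 (0.05 and -0.02) and several rarer genes lie near or below 0.

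Actc1 kept different company in the lines. In the Lgr6 mice its rho was 0.91 and 0.84 with Cnn1, 0.77 and 0.81 with Myh11 and 0.72 and 0.75 with Acta2. In the Lgr5 mice its rho with Acta2 was 0.13 and -0.22, while it was 0.54 and 0.51 with the skeletal actin Acta1 and 0.63 and 0.51 with the embryonic globin gene Hbb-bh1. Hbb-bh1 was detected in 29 of 29 and 26 of 28 Lgr5 cells and in 1 of 50 and 0 of 75 Lgr6 cells, and Acta1 averaged 4.40 and 4.53 in the Lgr5 and 0.19 and 0.10 in the Lgr6 mice. All 14 and all 10 Lgr5 cells with Actc1 had both of these transcripts. The part of the erythroid transcript and of shared actin sequence in the Actc1 values of the Lgr5 cells was not tested.

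The pool wells, libraries of their own from the same mice, showed the widest gap. In the Lgr5 pools 18 of 35 members had 0 counts in either well, and 16 of these had counts in both Lgr6 pools. Acta2 had 0 and 0 counts in the Lgr5 pools and 975 and 40322 in the Lgr6 pools, Myh11 0, 0, 269 and 15241, Cnn1 0, 0, 266 and 13416, and Actc1 0, 0, 378 and 24923. Against a floor of 3 counts over both Lgr5 pools, Acta2 was at least 2725-fold higher in the pool of Lgr6 mouse 1. The bound was 3405-fold for that of Lgr6 mouse 2, and such bounds cover counting error only. The same bounds were 752 and 1287 for Myh11, 743 and 1133 for Cnn1, 1056 and 2105 for Actc1 and 523 and 332 for Tagln. In a pool, fewer cells that express a gene and less RNA per cell cannot be told apart. The other members were not absent from the Lgr5 pools: Myl6 stood at 10.71 and 12.56 there on the log2(TPM + 1) scale, Des at 8.03 and 9.44, Tpm1 at 9.54 and 8.21 and Csrp1 at 8.34 and 7.21. By CPM, 29 members were higher in both Lgr6 pools (18.6% of 5041 genes counted in at least 2 pools), 0 were lower and 6 overlapped (Itga8, Pln, Ppp1r12b, Ppp1r14a, Ldb3 and Abra).

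edgeR's test on the pools called 0 of 2511 genes (0.0%), with 386 at an unadjusted p under 0.05, and DESeq2 called 6.21% of them, with 13 members, all higher, where 4.5% were called higher. Without the filter on low counts edgeR called 8 members on the pools, all higher (Acta2, Actc1, Actg2, Cnn1, Flna, Myh11, Synpo2 and Tagln), where 0.124% of genes were called higher. With the filter, all 28 members tested were positive and 18 had an unadjusted p under 0.05, where 11.5% of genes had such a p and were higher. Acta2, Actc1, Actg2, Cnn1, Itga7, Myh11, Nexn, Pcp4l1, Pdlim3, Smtn, Sphkap, Synpo2 and Tagln had 0 counts in both Lgr5 pools. They passed the filter through the Lgr6 pools alone, so only a positive sign was possible for them. Of the members called above, only Flna, and Myocd by DESeq2, had counts in an Lgr5 pool. The log2 fold changes were 6.32 ± 1.44 (SE) for Flna, 4.59 ± 1.05 for Des, 3.91 ± 1.15 for Tpm1, 3.86 ± 1.24 for Csrp1 and 2.30 ± 1.03 for Myl6 (adjusted p from 0.314 to 0.395). The number of cells in a pool is not given in the sources used here, and the pools held 353310, 204948, 66586 and 2203576 counts with 6122, 2652, 3745 and 5380 genes. The pools also differed in other cell types: a list of alveolar fibroblast genes had a summed TPM of 37820 in the pool of Lgr5 mouse 1 and of 0, 12.1 and 0 in the others, and a pericyte list 93.1, 0, 3217 and 697. Their part in the result was not tested.

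**Figure D5:**
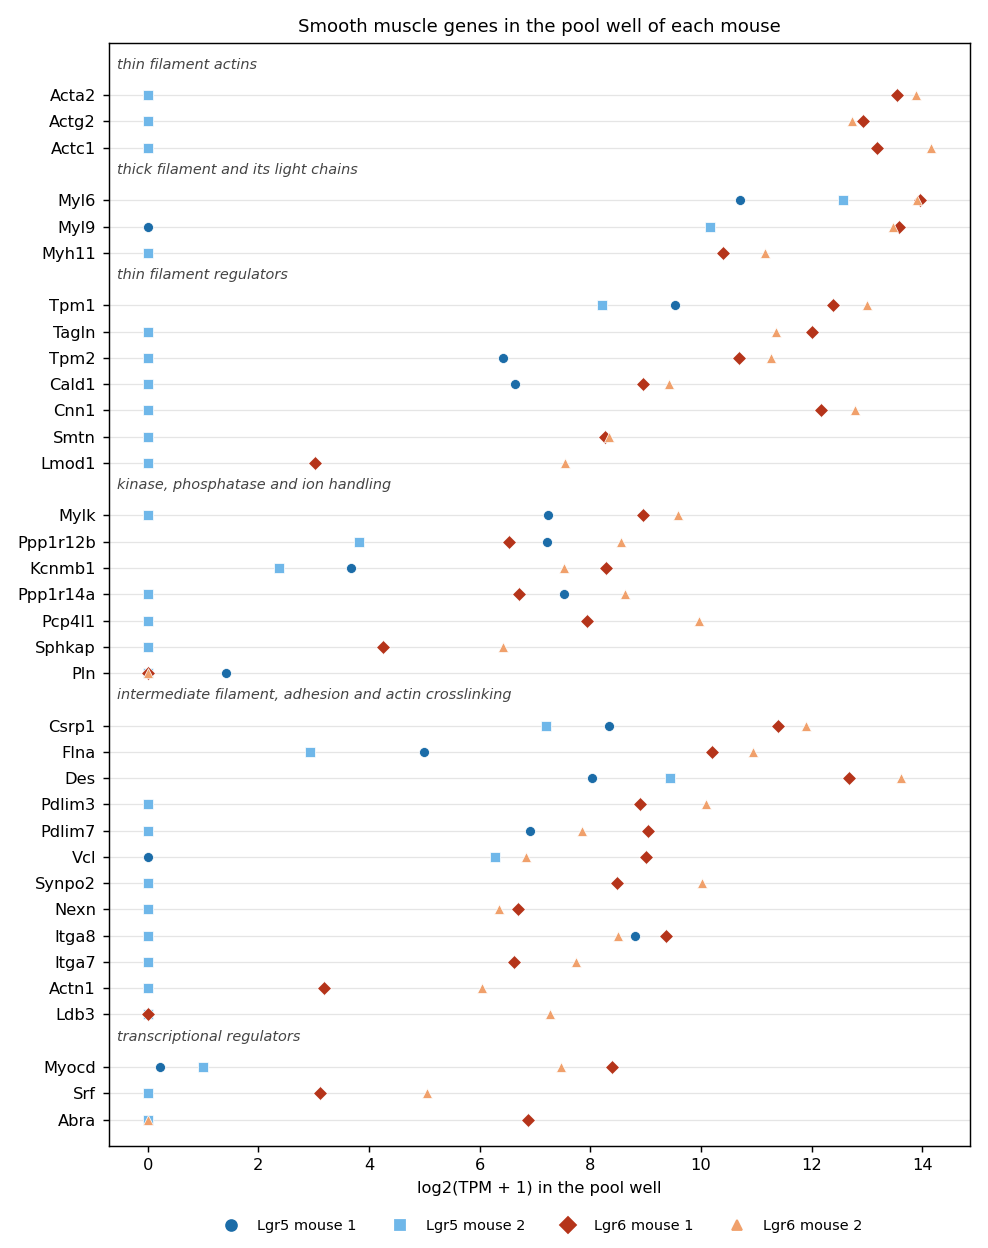
log2(TPM + 1) of the 35 genes in the pool well of each mouse (x axis), grouped by role; each point is a pool, and points of both Lgr5 pools lie on each other at 0 for 18 genes. Acta2 stands at 13.54 and 13.89 in the Lgr6 pools and at 0 in both Lgr5 pools.

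Genes of the same pathway outside the set were counted by fixed lists. Of 40 other genes of contraction and calcium handling in at least 5 cells, 22 were higher in both Lgr6 mice and 2 in both Lgr5 mice, with a median difference of 0.47. Mrvi1, the IP3 receptor partner of the cGMP kinase, averaged 1.05, 0.56, 4.77 and 3.88, and Itpr1, the IP3 receptor, 1.38, 1.08, 3.68 and 3.43, both without overlap. Of 38 other focal adhesion and dense plaque genes, 24 were higher in both Lgr6 mice and 6 in both Lgr5 mice, with a median of 0.75. Nonmuscle actins and myosins were divided, with 5 and 4 of 12 and a median of -0.24, and of 15 other genes around Srf and myocardin 3 and 2 were higher. By edgeR 0 genes of these lists passed an adjusted p of 0.05 in any of the comparisons between lines, and DESeq2 was not counted by list. The genes whose level was most like the mean of the members, over 4945 genes and the mean of 4 within-mouse rho values, were Ckb (0.55), Ogn (0.53), Lpp (0.50), Speg (0.47), Actb (0.46), Ehd4, Cryab, Ilk, Lgals1 and Sdpr.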

How the data were processed

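Libraries were made from 380 sorted single cells and 4 pools of 4 mice with a modified Smart-seq2 protocol and sequenced as paired reads. According to the submitters' processing notes, bcl2fastq 2.17.1.14 and kallisto 0.43.0 were used with mm10, and the annotation release is not given in the sources used here. The authors deposited estimated counts per gene as whole numbers, with kallisto's words of 31 bases, so that transcripts of one gene were summed. The authors also deposited log2(TPM + 1) for all wells and for the 182 kept cells, and a normalized score, the counts scaled to a median total of 99903.5 per kept cell. The filter on cells, which used gene number, housekeeping genes, R26-Tom, Ptprc and Pecam1, was that of the authors.

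Sums over the kept cells of a mouse, or over those of 1 Acta2 class of it, were fitted with edgeR 4.0.16 (TMM, filterByExpr, glmQLFit, glmQLFTest) in R 4.3.3, with Benjamini-Hochberg adjustment over all genes tested and a threshold of 0.05. Differences are Lgr6 minus Lgr5, or Acta2-high minus other. Levels are means of log2(TPM + 1), whose pseudocount of 1 shrinks differences of low genes. Nothing shows that the mice of a line were raised or sorted apart in more than name, and p-values measure the spread between them. Where a replicate was left out, the lone mouse was assumed to vary like the others. Exact intervals are Clopper-Pearson at 95%. Each well was sorted to hold a single cell, but doublets were not called, so a well may hold more than 1. Coordinates and 31-base words come from GENCODE vM21 on GRCm38, and CArG windows from RefSeq. The alternatives were DESeq2 1.42.0, limma 3.58.1 on the scaled counts and on mean TPM, library size, no filter on low counts, other thresholds and cells. Figures were drawn in matplotlib 3.10.9, tables were handled in pandas 2.3.3 and numpy 2.4.6 under Python 3.11.15, exact intervals came from scipy 1.17.1, and the tests were tried on simulated data. The members, lists and tests were chosen with earlier results of these data known. All 35 members are described, with fold changes for those whose lines did not overlap by mean, at most 4 genes were named per further list, and the 10 most alike genes were ranked among genes detected in at least 20% of the cells of every mouse.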

Additional observations from a re-analysis of the deposited data

Results flagged for a closer look

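Tpm1 was the member whose relation to Acta2, by the mean over cells, ran in opposite directions in the 2 lines, which is why it is given again. The mean log2(TPM + 1) of Tpm1 in the Acta2-high cells minus that in the other cells was -3.26 for Lgr5 mouse 1, -1.71 for Lgr5 mouse 2, 3.54 for Lgr6 mouse 1 and 3.24 for Lgr6 mouse 2, so the lines were 5.88 apart. The interaction test on summed counts did not pass the threshold (adjusted p = 0.983 by edgeR). On those counts Lgr5 mouse 1 went the other way, where 1 Acta2-high cell held 48.2% of the Tpm1 counts, so the direction depends on the measure.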

How the results depend on the processing

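Shares of genes called by edgeR depended on the tool, the filter and single libraries, and the cause was not tested except where fewer genes or samples were used. For the line difference in kept cells, where 0% was called, DESeq2 called 4.03%, no filter on low counts 2.07%, all wells with at least 2000 genes 0.765% (10 members), limma on scaled counts 0.342% (4 members) and limma on mean TPM with a pseudocount of 1 0.263% (2 members). Leaving out 1 mouse gave 0% to 0.217%, the highest without Lgr6 mouse 1 (34 genes, with Acta2, Actc1 and Actg2). For the Acta2-high contrast, at 0.0635%, the shares were 5.47% by DESeq2, 0.0862% with no filter (3 members), 0.29% with no replicate block (4 members), 0.205% in the Lgr6 mice only, 0% in the Lgr5 mice only, 0.124% at an Acta2 threshold of 10 (2 members), 0.178% by limma on scaled counts (2 members), 0.101% by limma on mean TPM with a pseudocount of 1 (1 member) and 0% with 0.1, and 0% without the cells of high epithelial TPM. Leaving out 1 mouse gave 0.00885% to 0.0492%, and each mouse but Lgr5 mouse 2 lowered the count of 7 genes by over 1.5 times. For the pools, at 0%, DESeq2 called 6.21%, no filter 0.196% and the replicate block 0.597% (8 members), and leaving out 1 pool gave 0.053% to 3.35% (2 to 17 members), the highest without that of Lgr5 mouse 1. Among Acta2-high cells, at 0%, DESeq2 called 8.06%, no filter 0.408% (2 members), the fit without the single Lgr5 cell, picked for its high Acta2, 0.0243%, and leaving out 1 mouse 0% to 0.053%. The interaction, at 0%, reached 2.67% by DESeq2. By the median over cells, 19 members were higher in both Lgr6 mice in place of 31. Single members changed sign as follows. Ppp1r14a ran from -0.17 to 4.46 on the log2 scale when 1 mouse was left out, negative without Lgr5 mouse 2. Ldb3 ran from -1.61 to 5.97, positive without Lgr5 mouse 1, and was 2 with the replicate block, 1.15 over all wells, 2.71 by limma on scaled counts, 2.81 for mean TPM at a pseudocount of 1, 4.21 at 0.1, and 3.84 without the single Lgr5 cell. Itga8 was 0.93 at an Acta2 threshold of 5. No other sign changed among 861 values of 58 fold changes, and no member called was lost, since none was called. These 58 were members picked for each fit, so the signs of the remaining members were not followed. Other signs did change: for the line difference in Acta2-high cells 32 of all 35 members were positive, and 28 without Lgr5 mouse 2. The same-number mice did not deviate together (correlation of 0.039 in kept cells and -0.0108 in the pools). With 2 mice per line this cannot show whether mice of the same number shared a preparation, which was not tested. Library size in place of TMM moved the median of all genes from 0.05 to -0.03 for the line difference, from -0.05 to 0.18 for the Acta2-high contrast and from 0.18 to -0.16 for the pools. Depth limits Abra, Sphkap and Pcp4l1, seen in few cells, and the pool of Lgr6 mouse 1 with 66586 counts.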

Other observations

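Markers of other cells were counted over the same means, each list over its genes detected in at least 5 kept cells, and by edgeR 0 of their genes passed an adjusted p of 0.05 between lines, on the pools or between Acta2 classes. Of 10 pericyte and vascular mural genes, 6 were higher in both Lgr6 mice and 2 in both Lgr5 mice. Kcnj8, a potassium channel subunit of pericytes, averaged 4.67, 3.76, 5.46 and 6.29 in Lgr5 mice 1 and 2 and Lgr6 mice 1 and 2 on the log2(TPM + 1) scale, and Mcam averaged 0.63, 0.09, 2.51 and 2.14. Of 10 myofibroblast genes 3 were higher in both Lgr6 mice and 6 in both Lgr5 mice, among the latter Enpp2, which makes lysophosphatidic acid, at 9.68, 9.81, 7.49 and 7.05. Alveolar fibroblast genes were divided, with 4 and 3 of 11. Of 12 cardiac and skeletal muscle genes, 2 were higher in both Lgr6 mice and 6 in both Lgr5 mice, such as the atrial light chain Myl4 at 2.65, 2.28, 0.30 and 0.38. Lung epithelial genes were higher in both Lgr5 mice for 8 of 10 and in both Lgr6 mice for 0, with the surfactant gene Sftpb at 4.15, 3.08, 1.86 and 1.57. Of 4 leukocyte and endothelial genes 1 was higher in both Lgr5 mice. Of 18 genes that respond to dissociation, 11 were higher in both Lgr5 mice and 1 in both Lgr6 mice, with Junb at 9.87, 9.31, 7.78 and 7.96. Over all genes, 31.1% were higher in both Lgr5 mice, and the part of these lists in the differences of the contractile genes was not tested.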
